A study of Mus musculus with 56 samples.

Results

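The comparison concerns the gastrocnemius, the large calf muscle, of 14 of the 56 mice in the series: 7 female control mice with running wheels and 7 female control mice with locked wheels. They were picked by the names of their columns in the count table, which start with FC for the mice at rest and with FCE for the mice that exercised. For each mouse the labels give the sex, group and treatment that its column name implies. FC therefore stands for female controls and not for a cell line. All 14 were C57Bl/6 mice on chow 5015, with both copies of Elavl1 floxed (HuR fl/fl) and without the muscle deletion of this gene, which encodes the RNA-binding protein HuR. The labels give an age of 5 months, 10 weeks with a wheel, and wheels between 10 and 20 weeks of age. The distance that each mouse ran and the time between the last run and the collection of the muscle were not used here. Where the response was compared with that of other mice, these were 14 male controls of the same kind (7 running, 7 locked) and 14 females labelled as HuR knockout (7 running, 7 locked), in which the floxed gene meets a Cre recombinase driven by the Mlc1f promoter of skeletal muscle fibres.

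Wheel running is voluntary endurance exercise. Repeated bouts are known to shift fast muscle from myosin heavy chain IIB (Myh4) towards IIX (Myh1) and IIA (Myh2), and to raise mitochondrial enzymes, capillaries and the machinery for taking up glucose and fat. The PGC-1 coactivators (Ppargc1a, Ppargc1b) work with nuclear receptors such as the PPAR and ERR families to switch on genes of mitochondria and fat oxidation. Expression is given as CPM, that is, counts per 1e+06 counts of a library after TMM scaling, and differences as log2 fold changes of running against locked mice, so that a positive value is higher with running. CPM is not divided by gene length and was compared only within a gene.

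The libraries held 8519862 to 14375522 counts in the locked mice (median 11205977) and 6639782 to 14185578 in the running mice (median 10129311), and 14321 of the 15539 genes in the table had enough counts to be tested. Xist was at 130 to 197 CPM in the 14 mice and the Y-linked gene Ddx3y at 0.584 CPM or less, as the label female implies. Elavl1 was at 38.9 to 48.2 CPM in the locked and 49.3 to 61.3 CPM in the running mice (log2 fold change 0.27 ± 0.12 (SE), limma adjusted p = 0.151). In the females labelled as HuR knockout it was at 37.9 to 62.3 CPM in the locked and 49.2 to 62.5 CPM in the running mice. On average this was no lower than in the controls, so that these counts alone do not bear out the label. The paper itself reports lower Elavl1 mRNA in the gastrocnemius of knockout than of control mice, and lists qPCR primers for this gene. Whether the counted reads lie outside the deleted part of the gene is not given in the sources used here, and whole muscle also holds cells without the Cre recombinase. Of the 12 skeletal muscle markers, 5 (41.7%) were called higher and 0 lower with running, against 4.5% of all genes called higher. The mean level of these markers was high in all 14 mice. Marker transcripts of liver were high in 3 locked mice. Their mean log2(CPM + 0.5) was 6.32 in locked mouse 15, 4.04 in locked mouse 12 and 4.0 in locked mouse 16, against 1.87 to 2.43 in the other 4 locked mice and 0.171 to 2.59 in the running mice. Genes encoded in the mitochondrion took 25.6 to 30% of the counts of the locked mice (mean 27.6%) and 20.5 to 24.5% of those of the running mice (mean 23.1%), so that the groups did not overlap (exact permutation test, two-sided, p = 0.000583, the smallest that 7 against 7 mice allow).

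In the female controls 1251 of 14321 genes (8.74%) passed an adjusted p of 0.05, of which 645 (4.5% of the genes tested) were higher and 606 (4.23%) lower with running. Most changes were small: the median size among the called genes was 0.48 on the log2 scale, and 223 genes changed by at least 2-fold, 133 of them upward. The 7 running and 7 locked mice did not overlap in 317 genes (2.21%), and 284 of these were called, 144 higher and 140 lower. Among genes with a known role in muscle, the IIA and IIX myosins, hexokinase 2, the PGC-1β gene and the oxygen-responsive gene Egln3 rose, whereas collagens, ribosomal proteins, genes encoded in the mitochondrion and markers of fat, blood and immune cells fell. Without locked mouse 12 the count of called genes was 779, without running mouse 1 it was 813 and without running mouse 27 it was 830. Without locked mice 12, 15 and 16 it was 320, and 300 of these were among the 1251. Calls close to the threshold moved most. Of the genes named below, Mef2c lost its call in 18 of 30 alternatives and Atp2a1, Got2 and Psmd6 in 17. Pparg, Pon1 and Fbxo31 lost theirs in 16, Alb in 14 and Insr in 12.

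**Figure D1:**
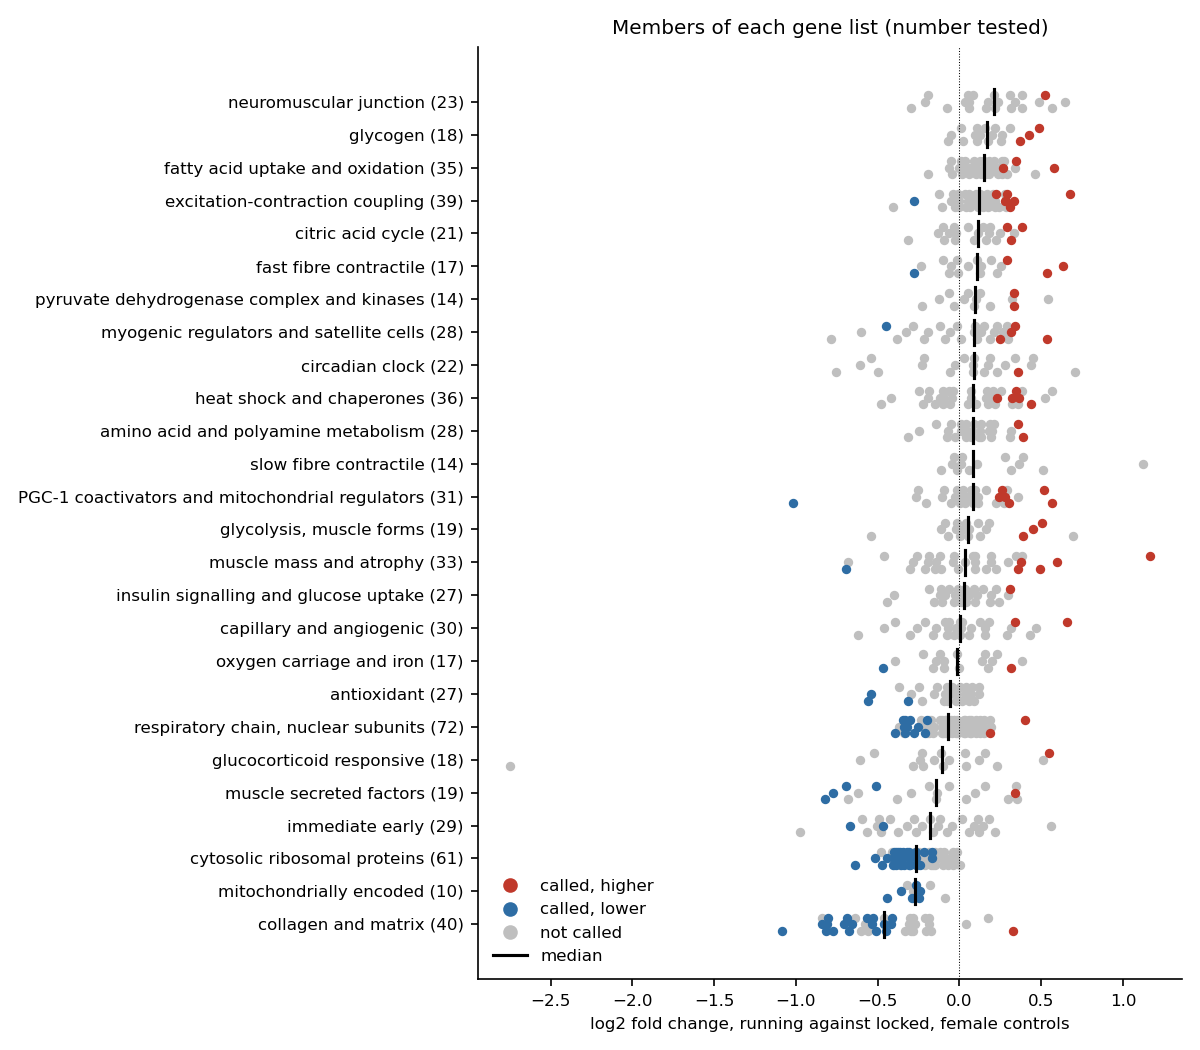
Log2 fold changes of running against locked female controls (x axis) for the tested members of 26 gene lists (y axis, number tested in brackets). Each point is a gene, red if called higher, blue if called lower and grey if not called, and the black line is the median of the list. The lists of collagen and matrix, mitochondrially encoded genes and cytosolic ribosomal proteins lie to the left of 0, with medians of -0.46, -0.27 and -0.27, and the 10 lists at the top have medians between 0.09 and 0.21.

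Among the fast fibre genes, the IIA and IIX myosins rose and the IIB myosin did not pass the test. Myh2 (ENSMUSG00000033196, chromosome 11, 67171027 to 67197517, GRCm38) was at 1043, 1332 and 1741 CPM (lowest, median, highest) in the locked mice and at 1719, 2078 and 2413 CPM in the running mice. Only the lowest running mouse lay within the range of the locked mice, and the log2 fold change was 0.63 ± 0.13 (SE, n = 7 and 7, limma adjusted p = 0.00127). Its neighbour Myh1 (ENSMUSG00000056328, chromosome 11, 67200052 to 67224575) was at 825, 1184 and 1523 CPM in the locked and at 1518, 1657 and 1906 CPM in the running mice, a log2 fold change of 0.53 ± 0.12 (adjusted p = 0.00383). Myh4, the most abundant of these transcripts, spanned 19264 to 29335 CPM in the locked and 24250 to 30786 CPM in the running mice, which overlapped (log2 fold change 0.26 ± 0.10, adjusted p = 0.0878). Atp2a1, the calcium pump of fast fibres, rose by 0.29 ± 0.10 (adjusted p = 0.0449), and Pvalb, the calcium buffer parvalbumin of fast fibres, fell by 0.28 ± 0.08 on the log2 scale (adjusted p = 0.0213). In all, 3 of 17 tested fast fibre genes were higher and 1 was lower, 23.5% called against 8.74% of all genes, with a median of 0.11. None of the 14 slow fibre genes was called by limma, edgeR or DESeq2 (2 had an unadjusted p under 0.05, median 0.08), and the slow myosin Myh7 was at 58.3, 74.4 and 93.8 CPM in the locked and 77.2, 98.8 and 122 CPM in the running mice (log2 fold change 0.39 ± 0.20, adjusted p = 0.238).

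**Figure D2:**
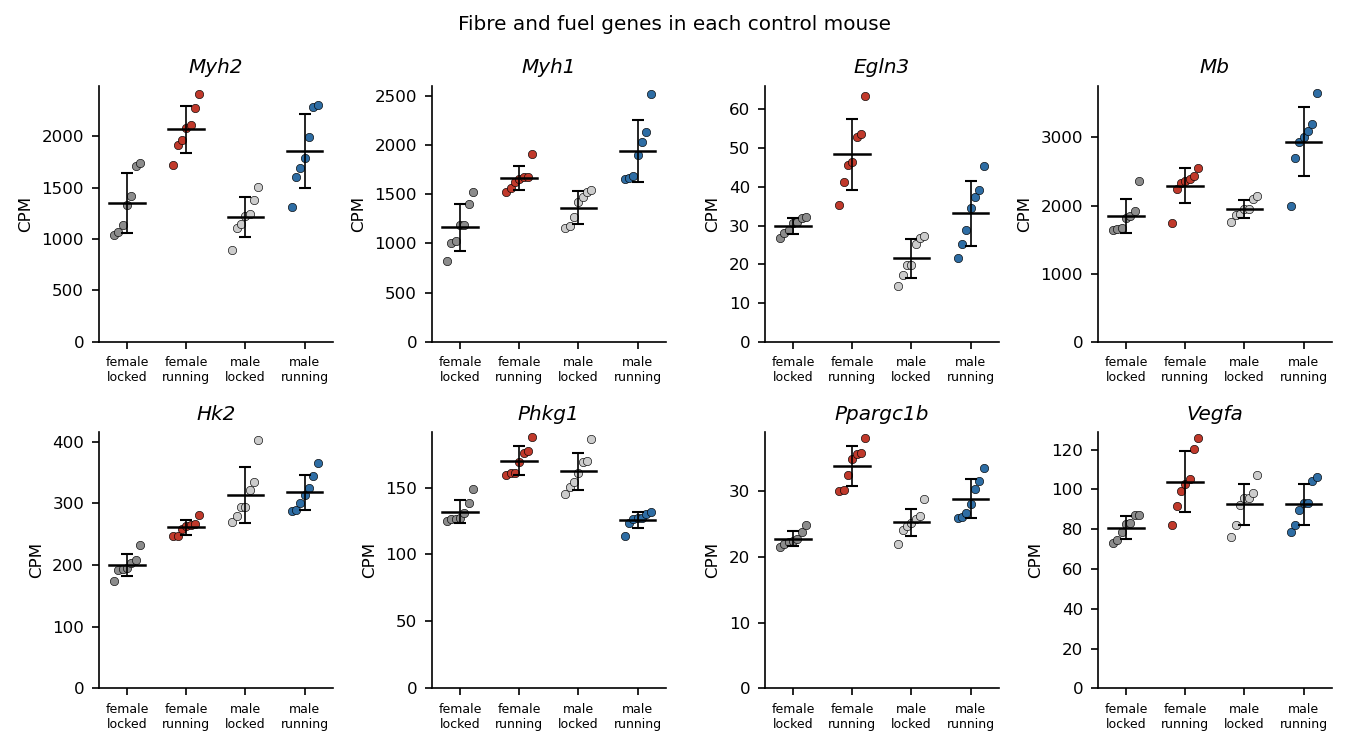
CPM of 8 genes in each control mouse (y axis, starting at 0) for locked and running females and males (x axis, 7 mice a group, sorted by value within a group). Points are mice, lines are means and bars are 1 SD. Hk2, Phkg1, Ppargc1b and Egln3 separate the running from the locked females without overlap, and Phkg1 is lower in running than in locked males.

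Genes of glucose use changed at a few steps. Hk2, the hexokinase that traps glucose in muscle fibres (ENSMUSG00000000628, chromosome 6, 82725025 to 82774454), was at 174, 195 and 232 CPM in the locked mice and at 247, 263 and 282 CPM in the running mice. The groups did not overlap, and the log2 fold change was 0.39 ± 0.07 (adjusted p = 0.000133). Ldhb, the lactate dehydrogenase subunit of oxidative fibres, rose by 0.45 ± 0.12 (adjusted p = 0.0129), and Pfkfb3, which makes the activator of phosphofructokinase, rose by 0.51 ± 0.15 (adjusted p = 0.0243). These were the 3 called genes among 19 of muscle glycolysis (15.8% against 8.74% of all genes, median 0.05). Of 18 glycogen genes 3 rose and 0 fell (16.7%, median 0.17), namely Gys1, the muscle glycogen synthase, by 0.48 ± 0.12 (adjusted p = 0.00759), Ppp1r3c, which targets protein phosphatase 1 to glycogen, by 0.43 ± 0.12 (adjusted p = 0.015), and Phkg1, the catalytic subunit of phosphorylase kinase, by 0.37 ± 0.07 (adjusted p = 0.000562). Phkg1 was at 125 to 149 CPM in the locked and 160 to 187 CPM in the running mice, without overlap. Phkg1 shares part of its position with Chchd2 and Gm42790, and reads of overlapping genes cannot be assigned with certainty here.

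Of 27 genes of insulin signalling and glucose uptake, the insulin receptor gene Insr was the 1 called (0.31 ± 0.10, adjusted p = 0.0305), a share of 3.7% that lies below that of all genes. Slc2a4, which encodes the glucose transporter GLUT4, was at 203 to 261 CPM in the locked and 208 to 314 CPM in the running mice (log2 fold change 0.19 ± 0.09, adjusted p = 0.181). Of 14 genes of the pyruvate dehydrogenase complex and its kinases, Pdk2 (0.33 ± 0.09, adjusted p = 0.0158) and Pdk1 (0.33 ± 0.09, adjusted p = 0.0202) rose, which encode kinases that switch the complex off. They made up 14.3% of the list, against 8.74% called over all genes. Pdk4, the kinase induced by fasting, ranged from 22.4 to 177 CPM in the locked and from 21.1 to 204 CPM in the running mice, so that its spread exceeded any difference (log2 fold change -0.23, 95% interval -1.28 to 0.83, adjusted p = 0.847).

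Of the coactivators, the PGC-1β gene rose and the PGC-1α gene did not pass the test. Ppargc1b was at 21.4, 22.4 and 24.8 CPM in the locked mice and at 29.9, 34.9 and 38 CPM in the running mice, without overlap (log2 fold change 0.57 ± 0.10, adjusted p = 0.000199). Ppargc1a was at 31.6 to 58.5 CPM in the locked and 44.8 to 66.1 CPM in the running mice (log2 fold change 0.16, 95% interval -0.04 to 0.36, adjusted p = 0.338). Ppard, the PPAR receptor most active in muscle, was at 3.47 to 6.67 CPM in the locked and 6.89 to 8.92 CPM in the running mice, also without overlap (0.52 ± 0.16, adjusted p = 0.0294). Prkaa2, the catalytic α2 subunit of the energy sensor AMPK, rose by 0.26 ± 0.08 (adjusted p = 0.0245). Pparg, the PPAR receptor of adipocytes, fell by 1.02 ± 0.33 on the log2 scale (adjusted p = 0.0447). Of the 31 regulators on this list 6 rose and 1 fell (22.6% called against 8.74% of all genes, median 0.08). Without locked mice 12, 15 and 16 there was 1 that rose and 0 that fell.

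In fat oxidation, 3 of 35 genes rose and 0 fell (8.57%, close to the 8.74% of all genes, median 0.15). Acacb, which makes the malonyl-CoA that restrains fat entry into mitochondria, was at 48.9 to 77.9 CPM in the locked and 73.1 to 109 CPM in the running mice (0.58 ± 0.11, adjusted p = 0.00101). Crat, carnitine acetyltransferase, rose by 0.35 ± 0.09 (adjusted p = 0.013) and Eci1, an isomerase for unsaturated fatty acids, by 0.27 ± 0.07 (adjusted p = 0.013), both without overlap. Lpl, the lipase that releases fatty acids from blood lipids, was at 516 to 833 and 706 to 1063 CPM (0.34 ± 0.12, adjusted p = 0.0754). The fatty acid transporter gene Cd36 was at 128 to 177 CPM in the locked and 110 to 205 CPM in the running mice, with an interval for the log2 fold change of -0.18 to 0.25. In the citric acid cycle 3 of 21 genes rose and 0 fell (14.3%, median 0.11), among them Ogdh by 0.39 ± 0.09 (adjusted p = 0.00256) and Got2 by 0.29 ± 0.10 (adjusted p = 0.0492).

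Most of the called genes of the respiratory chain fell. Of 72 nuclear genes of its subunits, 11 fell and 2 rose (18.1% called against 8.74% of all genes, median -0.07). Cox6c, a small subunit of cytochrome oxidase, was at 1056, 1148 and 1311 CPM in the locked and at 877, 912 and 1033 CPM in the running mice, without overlap (log2 fold change -0.34 ± 0.07, adjusted p = 0.000787), and Cox7a2, another small subunit, fell by 0.33 ± 0.08 (adjusted p = 0.00434). The 2 that rose were Uqcrc1, a core subunit of complex III, at 283 to 329 and 351 to 451 CPM (0.40 ± 0.09, adjusted p = 0.00253), and Atp5b, the catalytic subunit of the ATP synthase (0.19 ± 0.05, adjusted p = 0.01). Of the 10 tested genes that the mitochondrial genome encodes, 6 fell, 0 rose and all 10 had a negative log2 fold change (median -0.27). mt-Nd5, a subunit of complex I, was at 3929, 4416 and 4734 CPM in the locked and at 2910, 3294 and 3449 CPM in the running mice (-0.44 ± 0.06, adjusted p = 8.98e-06), and mt-Rnr1, the small mitochondrial ribosomal RNA, fell by 0.36 ± 0.08 (adjusted p = 0.00542). When the trend of fold change with exon length was removed from each mouse, the list of respiratory chain, nuclear subunits had 4 genes that rose, 5 that fell and a median of 0.003, and the mitochondrially encoded list had 2 that fell and a median of -0.19.

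Oxygen supply was represented by few called genes. Egln3, a prolyl hydroxylase induced when oxygen is low (ENSMUSG00000035105, chromosome 12, 54178981 to 54203860), was at 26.7, 30.6 and 32.1 CPM in the locked mice and at 35.4, 46.3 and 63.5 CPM in the running mice. The groups did not overlap (log2 fold change 0.66 ± 0.14, adjusted p = 0.00211). Vegfa, the main growth factor for capillaries, was at 73.1, 82.8 and 87.1 CPM in the locked and at 82.0, 103 and 126 CPM in the running mice (0.34 ± 0.11, adjusted p = 0.033). They were the 2 called genes among 30 capillary and angiogenic genes, whose median was 0.003. This share of 6.67% lies below the 8.74% of all genes. Mb, the oxygen store myoglobin, was at 1642 to 2355 CPM in the locked and 1745 to 2547 CPM in the running mice (0.31 ± 0.10, adjusted p = 0.0422). Mb kept its call in 15 of 30 alternatives, and Vegfa in 20. Aqp1, the water channel of capillaries and red cells, fell by 0.46 ± 0.10 (adjusted p = 0.00169), and with Mb it made up the calls among 17 genes of oxygen carriage and iron (1 higher, 1 lower, median -0.02).

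The cytosolic ribosomal proteins formed the largest group of falls among the lists. Of 61 tested genes 30 fell and 0 rose (49.2% called lower, against 4.23% of all genes), 60 had a negative log2 fold change, and the median was -0.27. Many vertebrate ribosomal protein genes start their transcripts with a C followed by a run of C and T, the 5′ terminal oligopyrimidine tract by which their translation is controlled. The start sites below come from RefSeq (GRCm38.p6) and were picked from the members that fell and have such a run at an annotated start. Most members that fell lack it there, and some that were not called have it. Another annotated start of Rps21 also lacks it. Each line gives 30 bases, 12 before the annotated start and 18 from it on, on the strand of the gene, and the capitals mark the unbroken run of C and T at the start.
Rpl35, chr2:39005114-39005143, minus strand: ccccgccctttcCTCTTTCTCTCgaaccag
Rps27, chr3:90213631-90213660, minus strand: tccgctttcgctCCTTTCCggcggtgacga
Rps18, chr17:33955648-33955677, minus strand: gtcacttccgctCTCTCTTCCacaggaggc
Rps21, chr2:180257367-180257396, plus strand: cgaggacccgccCTCCTgcccaatagtgct

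A C followed by at least 4 bases that are C or T stood at an annotated start of 10 of the 45 ribosomal protein genes with a sequence (22.2%), of 5 of 20 that fell (25%) and of 324 of 10533 tested genes with a sequence (3.08%). Annotated starts can be off by some bases, so these shares count only what the table holds. Rpl35 was at 167, 192 and 207 CPM in the locked and at 102, 122 and 134 CPM in the running mice, without overlap (log2 fold change -0.64 ± 0.12, adjusted p = 0.000332). Rpl22 fell from 239 to 283 CPM to 184 to 209 CPM (-0.39 ± 0.06, adjusted p = 2.68e-05). Rps27 (-0.47), Rps18 (-0.39) and Rps21 (-0.27) also fell, and none of these 3 overlapped between the groups. Ribosomal protein genes have many processed copies in the genome, so their counts depend on how the authors assigned shared reads. The cytosolic ribosomal proteins had 9 falls and a median of -0.25 without locked mice 12, 15 and 16, and 19 falls when the trend with exon length was removed.

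**Figure D3:**
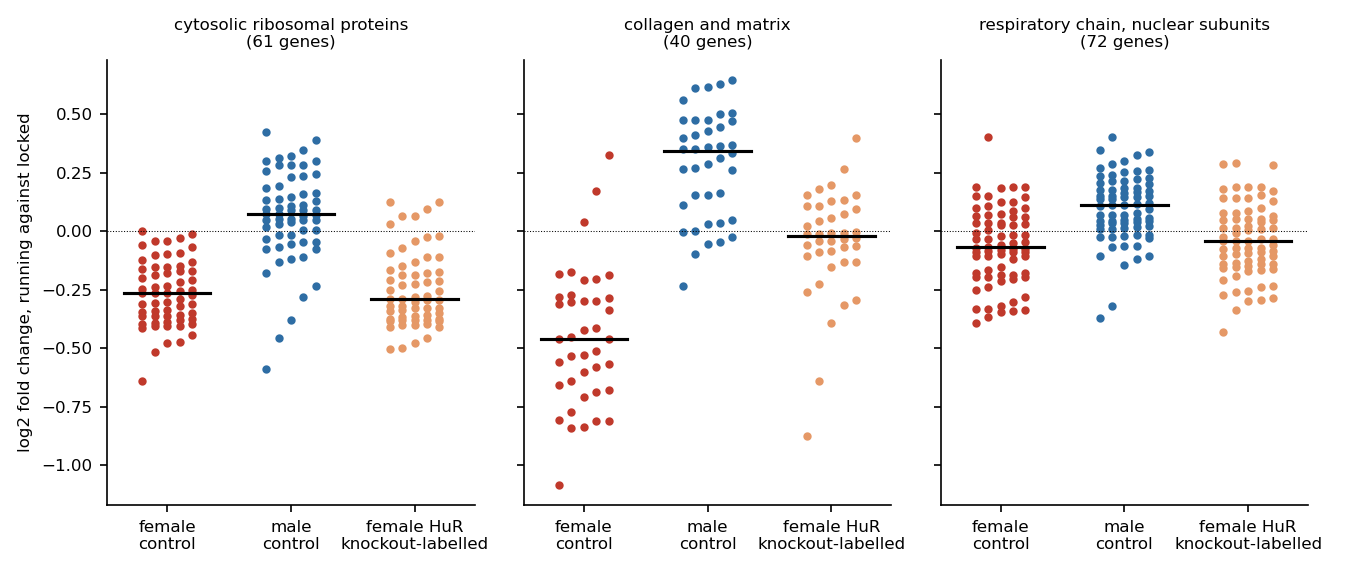
Log2 fold changes of running against locked mice (y axis) for the members of 3 gene lists in female controls, male controls and females labelled as HuR knockout (x axis). Points are genes and lines are medians. The ribosomal proteins have medians of -0.27, 0.07 and -0.29, and the matrix genes of -0.46, 0.34 and -0.02.

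Of 40 collagen and matrix genes 18 fell, 1 rose and 21 were not called (45% lower against 4.23% of all genes, median -0.46). Mmp2, a gelatinase that cuts collagen IV (ENSMUSG00000031740, chromosome 8, 92827291 to 92853420), was at 39.2, 47.2 and 64.4 CPM in the locked and at 20.2, 26 and 43.8 CPM in the running mice (log2 fold change -0.84 ± 0.15, adjusted p = 0.000281). Dcn, the collagen-binding proteoglycan decorin, was at 1209 to 1855 CPM in the locked and 703 to 1048 CPM in the running mice, without overlap (-0.77 ± 0.15, adjusted p = 0.000632). The fibrillar collagens Col1a1, Col1a2 and Col3a1 had log2 fold changes of -0.81, -0.81 and -0.81, and Postn, the matrix protein periostin, of -1.08 ± 0.31 (adjusted p = 0.0196). For Col3a1 and Postn the highest locked value, 590 and 28.5 CPM, came from locked mouse 12. P4ha1, a prolyl hydroxylase that modifies collagen and is induced by low oxygen, was the member that rose (0.33 ± 0.10, adjusted p = 0.032). The collagen and matrix list had 5 genes that fell and a median of -0.37 without locked mice 12, 15 and 16, and 11 that fell without locked mouse 12 alone.

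Markers of cells other than muscle fibres were lower in the running mice as well. Of the marker lists, 4 of 10 adipocyte genes (40%), 4 of 9 erythroid genes (44.4%) and 6 of 14 leukocyte genes (42.9%) fell. So did 3 of 10 fibroblast and tendon genes (30%) and 3 of 23 liver genes (13%). Over all genes 4.23% fell, and 0 rose in any of these lists. The liver count depends on the test: all 23 genes had a negative log2 fold change (median -3.02), 18 had an unadjusted p under 0.05 with limma, and edgeR and DESeq2 each called 22. Adipoq, the hormone adiponectin of fat cells (ENSMUSG00000022878, chromosome 16, 23146536 to 23158028), was at 24.8, 46.9 and 57.0 CPM in the locked and at 9.40, 15.4 and 22.5 CPM in the running mice, without overlap (-1.58 ± 0.34, adjusted p = 0.00171). Hbb-bs, a β-globin whose reads can be shared with Hbb-bt, fell by 1.03 ± 0.25, Lyz2, the lysozyme of macrophages, by 1.04 ± 0.24, and Tnmd, the tendon protein tenomodulin, by 1.21 ± 0.32 on the log2 scale. Among the 12 largest falls without overlap were Plin1, which coats fat droplets (-1.23 ± 0.33), H2-Aa, an MHC class II chain (-1.14 ± 0.23), S100a4, a calcium-binding protein of fibroblasts and macrophages (-1.07 ± 0.25), and Pon1, a liver enzyme carried in plasma (-2.76 ± 0.90), whose highest locked value, 35.1 CPM, came from locked mouse 15. Alb, serum albumin from the liver, reached 1722 CPM in locked mouse 15 and 75.9 CPM in running mouse 26, against 41.4 to 283 CPM and 4.67 to 17.6 CPM in the other mice of each group. None of the 10 Schwann cell markers was called by limma, edgeR or DESeq2, with 0 at an unadjusted p under 0.05, and neither was any of 5 brown adipocyte or 3 islet markers, also with 0 at an unadjusted p under 0.05. Of 10 exocrine pancreas markers 0 were in the table. In bulk muscle, fewer cells of a type and less RNA per cell cannot be told apart.

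The mean levels of the markers, as log2(CPM + 0.5), ran from 4.26 to 5.00 in the locked and from 3.63 to 4.25 in the running mice for adipocytes, without overlap. They ran from 4.65 to 6.23 and from 4.32 to 5.37 for erythroid cells and from 2.57 to 3.33 and from 2.05 to 3.02 for leukocytes, which overlapped, and the means for fibroblasts and tendon ran from 3.76 to 4.75 in the locked mice and no higher than 3.92 in the running mice. The skeletal muscle markers went the other way, from 12.1 to 12.5 in the locked and from 12.5 to 12.6 in the running mice. The part of these cell types in the fall of matrix, immune and fat genes was not tested. With the adipocyte mean as a covariate 409 genes were called, and with the liver mean 634. Since the adipocyte mean separates the running from the locked mice, it and the wheel cannot be told apart in these mice. Without locked mice 12, 15 and 16, 2 adipocyte and 2 fibroblast and tendon markers fell and no erythroid, leukocyte or liver marker was called. These mice were left out for their high liver markers, and fewer locked mice remained for the test. The median log2 fold changes stayed negative, at -0.86 for adipocyte, -0.54 for fibroblast and tendon and -0.38 for erythroid markers. They were -0.66 for leukocyte markers (-0.72 with all mice) and -1.65 for liver markers (-3.02 with all mice). In the same fit 2 fast fibre and 2 glycogen genes rose, and 1 gene each of glycolysis, fat oxidation, the citric acid cycle and excitation-contraction coupling. Of the respiratory chain subunits 1 rose and 1 fell, and of the mitochondrially encoded genes 2 fell.

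**Figure D4:**
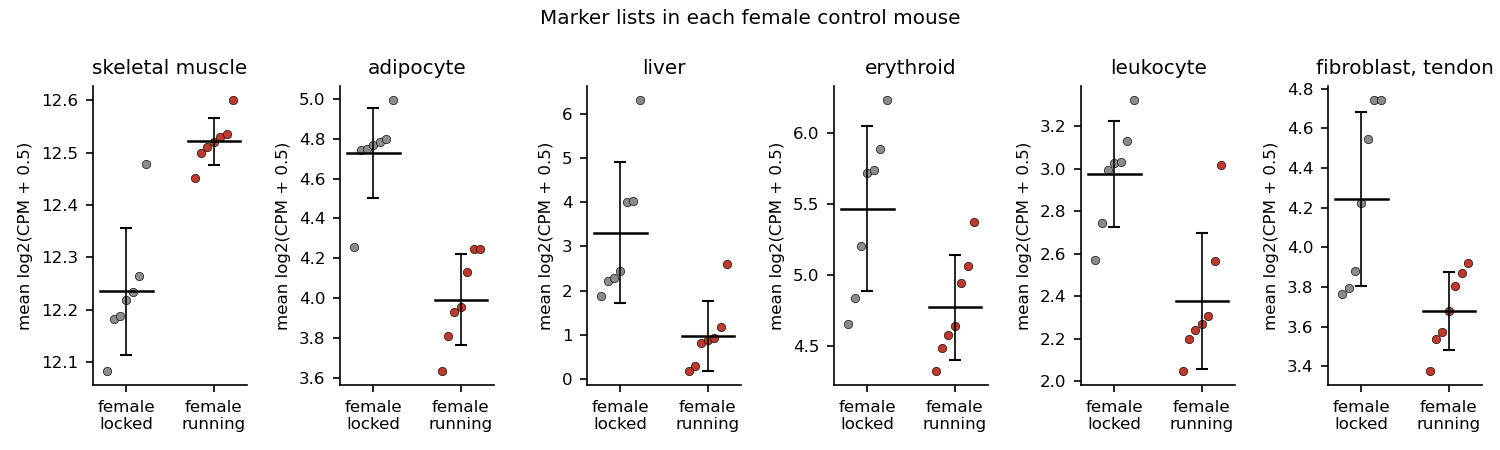
Mean log2(CPM + 0.5) of 6 marker lists (y axes, which do not start at 0) in the 7 locked and 7 running female controls (x axis), with the mean and 1 SD. Points are mice, sorted by value. The adipocyte means do not overlap, and the highest liver mean, 6.32, belongs to locked mouse 15.

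Genes that govern fibre size and calcium release changed in small numbers. Of 33 genes of muscle mass and atrophy 5 rose and 1 fell (18.2% called against 8.74% of all genes). Igf1, the growth factor made in muscle by fibres and other cells, was at 62.2, 71.6 and 101 CPM in the locked and at 40.6, 45.9 and 60.3 CPM in the running mice, without overlap (log2 fold change -0.70 ± 0.14, adjusted p = 0.00151). Mettl21e, a muscle methyltransferase, rose by 1.17 ± 0.32 (adjusted p = 0.0148), Acvr2b, a receptor for myostatin, by 0.59 ± 0.16 (adjusted p = 0.013) and Nos1, the nitric oxide synthase of the fibre membrane, by 0.49 ± 0.11 (adjusted p = 0.00219). Smad3, which carries the myostatin signal, rose by 0.38 ± 0.11 (adjusted p = 0.0231), and the fifth was the ubiquitin ligase subunit gene Fbxo31. Mstn itself was at 31.8 to 45.9 CPM in the locked and 40.9 to 58.4 CPM in the running mice (0.34 ± 0.14, adjusted p = 0.12). Among 39 genes of excitation-contraction coupling 7 rose and 1 fell (20.5% called, median 0.12), led by Ryr1, the calcium release channel, at 557, 649 and 964 CPM in the locked and 891, 1043 and 1321 CPM in the running mice (0.68 ± 0.12, adjusted p = 0.000218). Its voltage sensor gene Cacna1s rose by 0.31 ± 0.09 (adjusted p = 0.0282).

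Of 28 myogenic regulators and satellite cell genes 4 rose and 1 fell (17.9% called against 8.74% of all genes). Among the rises were Cdh15, a cadherin of satellite cells (0.53 ± 0.17, adjusted p = 0.0366), the muscle transcription factors Mef2d (0.31 ± 0.07, adjusted p = 0.00163) and Mef2c (0.25 ± 0.08, adjusted p = 0.0446). Of 23 genes of the neuromuscular junction 1 rose, a share of 4.35% that lies below that of all genes. It was the deacetylase gene Hdac4, at 21.5 to 34.2 and 37.4 to 53.0 CPM without overlap (0.52 ± 0.14, adjusted p = 0.0146). Of 36 heat shock and chaperone genes 5 rose and 0 fell (13.9%, median 0.09). Hsp90ab1, a cytosolic chaperone, was at 846 to 935 CPM in the locked and 1012 to 1326 CPM in the running mice (0.32 ± 0.07, adjusted p = 0.00357). Bag3, which helps clear damaged filament proteins, was at 66.1 to 80.9 and 83.3 to 130 CPM (0.44 ± 0.10, adjusted p = 0.00232), and Unc45b, the myosin chaperone, rose by 0.35 ± 0.09 (adjusted p = 0.00949).

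The other lists held few calls, and their shares stand beside 8.74% called over all genes. Of 27 antioxidant genes 3 fell and 0 rose (11.1%, median -0.06), led by the glutathione peroxidase gene Gpx1 (-0.56 ± 0.11, adjusted p = 0.00111). Of 29 immediate early genes 2 fell (6.9%), Klf4 (-0.67 ± 0.16, adjusted p = 0.00548) and Klf6 (-0.47 ± 0.11, adjusted p = 0.00565), and Nr4a3, an exercise-induced receptor, was at 3.92 to 9.87 CPM in the locked and 1.46 to 6.89 CPM in the running mice (-0.49, 95% interval -1.05 to 0.07). Of 22 clock genes the repressor gene Cry1 was the 1 called (4.55%, 0.36 ± 0.12, adjusted p = 0.0416). Of 18 glucocorticoid-responsive genes Zbtb16 was the 1 called (5.56%, 0.55 ± 0.16, adjusted p = 0.0231). Of 19 muscle secreted factors 4 fell and Vegfa rose (26.3%). Beside Dcn and Igf1, the falls were Sparc, a matrix glycoprotein (-0.51 ± 0.13, adjusted p = 0.00758), and Ostn, the fibre hormone musclin, at 55.2, 86.3 and 114 CPM in the locked and 37.7, 46.0 and 67.6 CPM in the running mice (-0.82 ± 0.20, adjusted p = 0.00786). Of 28 genes of amino acid and polyamine metabolism 2 rose and 0 fell (7.14%).

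Of the 12 largest rises without overlap, 10 belonged to genes annotated inside an intron of a longer gene. Of 648 tested genes that lie within an intron of a gene on the same strand, 114 rose (17.6%) and 6 fell (0.926%). Over all genes 4.5% rose and 4.23% fell. The median log2 fold change of the 648 was 0.70, against 0.007 over all genes. Gm43185 (ENSMUSG00000104621, chromosome 3, 152250029 to 152252803), within the sarcomere gene Nexn and not counted among the 648 because it overlaps an exon of it, was at 3.16, 4.67 and 7.90 CPM in the locked and at 13, 19.2 and 20.7 CPM in the running mice (1.80 ± 0.22, adjusted p = 3.68e-07). Gm43063, inside the AMP deaminase gene Ampd1, rose by 1.56 ± 0.23 (adjusted p = 1.77e-05), and 9530086O07Rik, inside Pdzrn3, by 1.85 ± 0.34 (adjusted p = 0.000417). Gm42614, inside the first PGC-1 gene Ppargc1a (ENSMUSG00000105442, chromosome 5, 51482752 to 51484305), was at 0 to 0.76 CPM in the locked and 1.02 to 1.80 CPM in the running mice (1.72 ± 0.45, adjusted p = 0.011). For 111 intronic genes that rose and whose host was tested, the median was 1.32. They were picked because they rose, so this median is high by choice and was not compared with that of their hosts. Among the 97 hosts 27 rose, 1 fell and the median was 0.15, and over all genes 645 of 14321 (4.5%) rose. Ampd1 had a log2 fold change of 0.01 and Ppargc1a of 0.16. Counts of such genes and of unspliced RNA of their hosts cannot be told apart in this table.

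**Figure D5:**
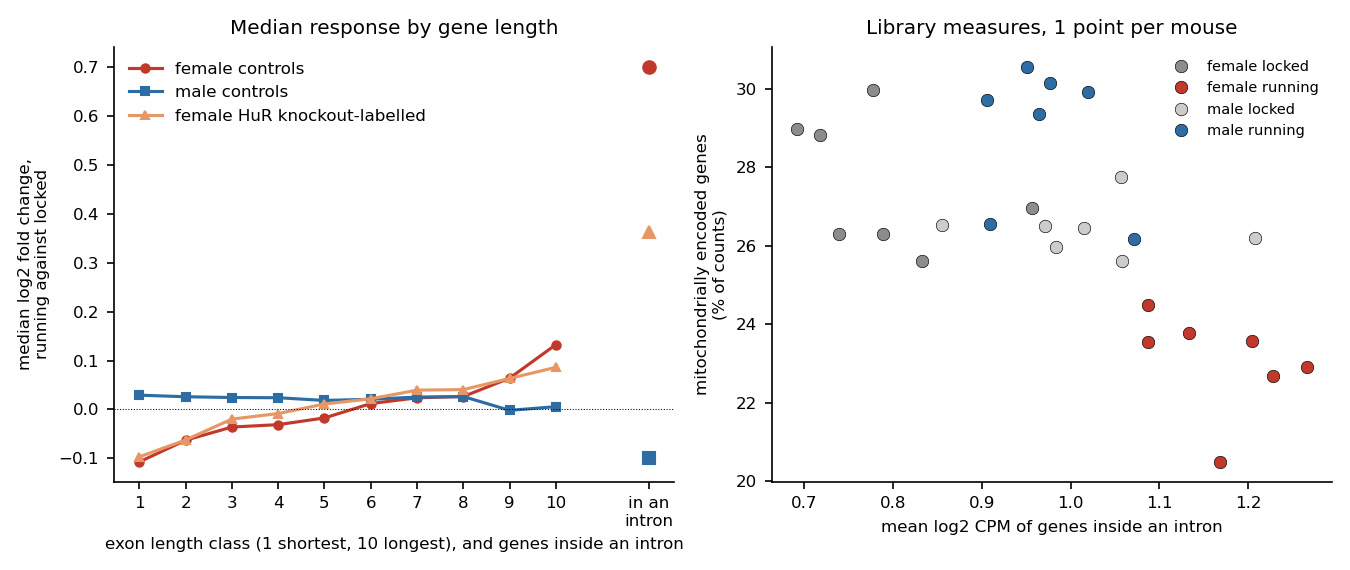
Left, median log2 fold change of running against locked mice (y axis) for tested genes in 10 classes of exon length and for genes inside an intron (x axis), in female controls, male controls and females labelled as HuR knockout. Right, share of counts from mitochondrially encoded genes (y axis, which does not start at 0) against the mean log2(CPM + 0.5) of genes inside an intron (x axis), 1 point per control mouse. The 7 running females lie apart from the 7 locked females on both axes.

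Gene length moved with the response. In the shortest 10th of the exon lengths 47 of 1431 genes rose (3.28%) and 138 fell (9.64%), with a median of -0.11. In the longest 178 of 1430 rose (12.4%) and 30 fell (2.1%), with a median of 0.13. Over all genes 4.5% rose and 4.23% fell. Ttn, the longest muscle transcript, was at 8728, 10872 and 22339 CPM in the locked and at 20983, 25612 and 31504 CPM in the running mice (1.01 ± 0.17, adjusted p = 0.000119). The mean log2(CPM + 0.5) of the intronic genes was 0.692 to 0.957 in the locked and 1.09 to 1.27 in the running mice, without overlap, and their share of the counts was 0.445% and 0.486% on average (exact permutation test, two-sided, p = 0.00117). Gm42418, which overlaps a ribosomal RNA gene, took 11.2% of the counts of the locked and 12.6% of those of the running mice on average (p = 0.0146 in the same exact test). With the intronic mean as a covariate limma called 0 genes, with 1326 at an unadjusted p under 0.05. Since that mean separates the 7 running from the 7 locked mice, the wheel and this property of the RNA cannot be told apart in these 14 mice. With the length trend removed 988 genes were called, 876 of them among the 1251.

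The difference of the wheel responses, female controls minus male controls, passed the test for 1251 of 14321 genes (8.74%, by coincidence the same number as above), 620 higher and 631 lower, and in the males themselves 464 genes were called. The count of the difference was 594 without locked mice 12, 15 and 16 and 20 (18 higher, 2 lower) with the intronic covariate. Of the 61 ribosomal protein genes 29 differed, and of the 40 matrix genes 25. In males the mean share of mitochondrially encoded counts was 26.4% in the locked and 28.9% in the running mice (exact permutation test, p = 0.00932), which is the opposite direction to the females. The smallest p-values of the difference belonged to Gm42432, inside Map4 (2.14 ± 0.23, adjusted p = 1.35e-08), Gm43185 (2.32 ± 0.27, adjusted p = 7.27e-08), Gm43063, Phkg1 and Luc7l2. Phkg1 fell in males (log2 fold change -0.36, adjusted p = 0.00119), and its female minus male difference was 0.73 ± 0.10 (adjusted p = 1.77e-06). The response of Hk2 was 0.02 in males, with a difference of 0.37 ± 0.09 (adjusted p = 0.00726), that of Ryr1 -0.27 (difference 0.95 ± 0.17, adjusted p = 0.000258), and that of Mmp2 0.26 (difference -1.10 ± 0.21, adjusted p = 0.000534). Luc7l2, a splicing factor gene, was at 118 to 161 CPM in the locked and 169 to 222 CPM in the running females (0.58 ± 0.08, adjusted p = 2.46e-06), against -0.20 in males (adjusted p of the difference 3.12e-06). The difference of Ppargc1b, 0.38 ± 0.14, did not pass (adjusted p = 0.069), nor did that of Vegfa (0.35 ± 0.15, adjusted p = 0.143).

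The difference from the females labelled as HuR knockout passed for no gene (0 of 14321, 0%) with limma, with 1472 at an unadjusted p under 0.05, for 0 with edgeR and for 2 with DESeq2. In those mice 551 genes were called. No sample is shared with the female controls, and 203 genes were called in both, all 203 with the same sign. They were 16.2% of the calls in the controls and 36.8% of the calls in the knockout-labelled mice. Over all genes 8.74% were called in the controls. Of the 1251 genes, 87.8% had the same sign in the knockout-labelled females, against 62.7% of all genes tested, and 34.6% had the same sign in the male controls, against 46.6% of all genes. The intronic genes had medians of 0.36 in the knockout-labelled females and -0.10 in the male controls.

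Female and male controls shared 84 called genes, of which 23 had the same sign in both. These 84 were 18.1% of the male calls, and 8.74% of all genes were called in the female controls. Of the 14321 tested genes, 12 were called in the same direction in all 3 wheel responses. These 12 were picked out after their values were seen. They included Myh2, Myh1, Myom3, Smtnl1, Egln3, Mb, Ldhb, Eci1 and Gm17066, which rose, and Psmd6 and Snord89, which fell. Myom3, an M-band protein of the sarcomere, was at 14.2 to 29.1 CPM in the locked and 29.6 to 46.5 CPM in the running females, without overlap (0.79 ± 0.17), with log2 fold changes of 0.70 in male controls and 0.58 in knockout-labelled females. Smtnl1, a muscle protein regulated by protein kinase A, was at 53.5 to 74.0 and 75.3 to 96.6 CPM (0.44 ± 0.11), with 0.50 and 0.42 in the other groups. For Myh2 the 3 values were 0.63, 0.60 and 0.70, for Myh1 0.53, 0.50 and 0.60, for Egln3 0.66, 0.61 and 0.69, and for Ldhb 0.45, 0.66 and 0.58 in female controls, male controls and knockout-labelled females.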

How the data were processed

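Gastrocnemius RNA of 56 mice was sequenced. The authors deposited 1 table of counts per gene without normalization, and the smallest total of a gene is 168, so low genes had been removed before deposit. Of its 15539 gene identifiers 15503 matched GENCODE M21 (GRCm38, the build named in the submitters' processing notes, which also name mm10, R 4.0.3 and edgeR 3.38.4). The labels describe a kit for 3′ ends of transcripts with single 50-base reads and the methods of the study a stranded kit for total RNA with removal of ribosomal RNA. The aligner, the counter and whether strand was used are not given in the sources used here, so antisense pairs such as Xist and Tsix, Igf1 and Igf1os or Myh1 and Myhas cannot be separated.

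Counts were scaled by TMM in edgeR (version 4.0.16), filtered with filterByExpr, weighted with voom and tested with limma (version 3.58.1, R 4.3.3) in 1 fit of 8 groups of 7 mice. A gene was called where its p-value, adjusted over all 14321 tested genes after Benjamini and Hochberg, did not exceed 0.05. The spread is that between mice, and every pair within a female control group differed by more than counting noise (the chi-square divided by its degrees of freedom was 3.55 to 21.4). Per-mouse means of lists used log2(CPM + 0.5), and shares were compared with exact permutation tests. The script was tested on simulated data. Intronic means that all of a gene lies within an intron of another gene on the same strand. RefSeq start sites were read from the table supplied for GRCm38.p6.

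Named genes were those with the largest rises and falls (up to 12 each way, mean count of at least 10, no overlap), up to 6 called members of each of 26 lists (or the 2 with the smallest p), 16 fixed genes and the 5 with the smallest p in each difference, 125 in all, of which those given here carry values and a few are not reported here. A further 23 were named after their values were seen. The mice, the lists, the 10 marker lists and the tests were chosen with earlier results of these data known. Alternatives were other fits, filters, scalings, thresholds, sample weights, marker covariates, DESeq2 (version 1.42.0), a replicate block and each mouse left out in turn. The length trend, the intronic covariate and leaving out 3 locked mice were added after seeing the data.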

Additional observations from a re-analysis of the deposited data

Results flagged for a closer look

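In 27 of 288 sets of 7 mice (9.38%), 1 mouse lay far from the other 6 by Dixon's test, which chance gives in about 5% of such sets. Locked mouse 12 held the highest values of H2-Aa (126.8 CPM), Col3a1 (589.6), Postn (28.47) and Mb (2355). Locked mouse 15 held those of Pon1 (35.11 CPM), Alb (1722) and Gpx1 (191.7). Locked mouse 18 had the lowest adipocyte mean (4.255 as log2(CPM + 0.5)) and the highest values of Prkaa2 (154.8 CPM), Nos1 (38.62), Luc7l2 (160.7) and Plec (236.3), and locked mouse 20 the highest Pdk4 (176.7). Running mouse 1 had the lowest Rpl35 (101.7 CPM) and the highest Smad3 (115.2), Hsp90ab1 (1326), Unc45b (168.8) and Gm42432 (15.96). Running mouse 26 had the highest liver mean (2.59 as log2(CPM + 0.5)), Alb (75.92 CPM) and Myh1 (1906). Running mouse 28 had the lowest share of intronic counts (0.463%) and the lowest Mb (1745 CPM), running mouse 9 the lowest Klf4 (17.79) and the highest Ppargc1a (66.11), and running mouse 25 the highest Postn (12.55) and the lowest Dmd (245.6).

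For 49 genes given with values, the wheel response of the female controls differed from that of the male controls (limma, adjusted p of 0.05 or less). Over all genes 1251 of 14321 (8.74%) differed. Many genes given with values were picked for their response in the female controls, and some for the smallest p of this same difference. The count of 49 is therefore high by choice. The values that follow are the female minus the male log2 fold change. Among fibre, calcium and growth genes they were Ttn 1.08, Ryr1 0.95, Hdac4 0.93, Nos1 0.71, Acvr2b 0.70, Atp2a1 0.63, Mstn 0.59, Cacna1s 0.52, Myh4 0.50 and Igf1 -1.09. Among metabolic and clock genes they were Phkg1 0.73, Pfkfb3 0.71, Acacb 0.70, Cry1 0.55, Prkaa2 0.48, Uqcrc1 0.39, Hk2 0.37, mt-Nd5 -0.34, Cox6c -0.41, Cox7a2 -0.47 and Gpx1 -0.48. Ribosomal proteins had lower differences, with Rps21 at -0.36, Rpl22 at -0.44, Rps18 at -0.48 and Rps27 at -0.52.

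In matrix, blood, immune and early response genes the differences were Sparc -0.67, Klf4 -0.80, Mmp2 -1.10, Dcn -1.17, Col3a1 -1.26, Col1a1 -1.28, Col1a2 -1.37, Hbb-bs -1.40, H2-Aa -1.41, Lyz2 -1.62, S100a4 -1.75 and Tnmd -1.82. For transcripts within longer genes they were 9530086O07Rik 2.86, Gm43063 2.39, Gm43185 2.32, Gm42432 2.14 and Gm42614 1.91. For the remaining genes they were Neat1 0.83, Luc7l2 0.78, Plec 0.70, Kcnq1ot1 0.62, Mapt 0.61, Dmd 0.57 and Coro6 0.56.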

How the results depend on the processing

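For the female controls, 1251 genes were called, and other fits, tests, scalings and filters gave 1038 to 1642. The count was 478 with a 1.5-fold threshold, 409 with the adipocyte and 634 with the liver covariate, 0 with the intronic covariate and 320 without locked mice 12, 15 and 16. With each mouse left out in turn it was 779 (without locked mouse 12) to 1448. For the female minus male difference, also 1251, the count was 770, 762 and 20 with the 1.5-fold threshold, the adipocyte and the intronic covariate, 594 without the 3 locked mice and 991 to 1368 with each mouse left out. For the difference from the knockout-labelled females DESeq2 called 2 genes, 1 was called without the 3 locked mice and 0 to 2 with each mouse left out (2 without locked mouse 15). The male count of 464 was 1046 with sample weights and 101 with the 1.5-fold threshold, and the knockout-labelled count of 551 was 119 with that threshold, 355 with the length trend removed and 136 with the intronic covariate. The causes were not tested.

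Locked and running females share no replicate numbers. Some female and male numbers are the same, and the deviations of such mice correlated from -0.184 to 0.163. Mice with different numbers were not compared in this way, so these values cannot tell whether the numbers pair mice. With the replicate block 157 genes were called in the female minus male difference. Over 148 genes, signs turned under the intronic covariate for Gm43946 (-0.069), Myh7b (-0.030), Cox7a2 (0.0021), Ndufb2 (0.020), Ndufc2 (0.029), Myh4 (-0.073), Xist (-0.058) and Pdk4 (0.17). Pdk4 was also positive with edgeR (0.18), DESeq2 (0.19), the liver covariate (0.14) and without locked mouse 20, its range with each mouse left out being -0.57 to 0.055, and Cd36 was negative without running mouse 5 or 9, with a range of -0.033 to 0.12. Of 136 called genes, 50 lost their call in at most 1 alternative. Depth limits the lowest genes, such as Gm42614, which had 0 counts in some locked mice.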

Other observations

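Some of the smallest p-values of the wheel response in the female controls belonged to genes on none of the lists, and these were picked out after their values were seen. Coro6, a coronin that binds actin, was at 14.3 to 20.9 CPM in the locked and 27.8 to 35.8 CPM in the running mice (log2 fold change 0.77 ± 0.11, limma adjusted p = 6.26e-06). Mapt, the microtubule-binding protein tau, was at 57.3 to 75.5 and 79.4 to 122 CPM (0.65 ± 0.09, adjusted p = 6.26e-06), and Plec, the cytoskeletal linker plectin, at 188 to 236 and 271 to 325 CPM (0.56 ± 0.08, adjusted p = 1.22e-05). Dmd, which links the cytoskeleton to the fibre membrane, rose by 0.60 ± 0.10. The groups did not overlap for Coro6, Mapt and Plec.

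Of 223 long intergenic RNAs 11 rose and 6 fell (4.93% higher against 4.5% of all genes, median 0.03). Among noncoding RNAs known to stay in the nucleus, 3 that rose were also picked out after their values were seen. Neat1, the scaffold of paraspeckles, was at 192 to 391 CPM in the locked and 400.1 to 561 CPM in the running mice (0.79 ± 0.13, adjusted p = 0.000119). Kcnq1ot1, an imprinted antisense RNA, was at 44.2 to 80.6 and 104 to 129 CPM (0.80 ± 0.13, adjusted p = 5.23e-05), and Xist, which coats the inactive X chromosome, at 130 to 159 and 162 to 197 CPM (0.34 ± 0.10, adjusted p = 0.0174), each without overlap. The intronic genes were higher in the same 7 running mice. The part of nuclear RNA in these differences was not tested.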
